A study of Mus musculus with 3 samples.

Results

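The genes described here encode pre-mRNA splicing factors and heterogeneous nuclear ribonucleoproteins (hnRNPs), 65 of the 15058 genes listed for erythroblasts of mouse embryos. They were taken by symbol, as all listed genes whose names start with Srsf and a number, Hnrnp, Snrp, Sf3a, Sf3b, U2af or Prpf and a number, and 0 pseudogene symbols had to be left out. They fall into 11 SR protein genes, 18 hnRNP genes, 12 Sm and small nuclear ribonucleoprotein (snRNP) genes, 8 genes of the SF3a and SF3b complexes, 3 U2AF genes and 13 genes of PRP-type factors. All 65 are listed in both deposited tables, and 64 of them reached a scaled level of 1 CPM, the share of counts on a common scale, in either library of every comparison. The remaining one is Srsf12, with 4 counts in Drosha-null, 1 in Ter119-low and 0 in control cells, where 0 allows up to 3 counts. No ratio is given for it.

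RNA was sequenced from CD71-positive cells sorted from the peripheral blood of embryos at E10.5, and the design text describes pools of 5 embryos. CD71 is the transferrin receptor, and Ter119 is an antigen of the red-cell surface whose level goes up during erythroblast maturation. The Drosha-null library is from Ter119-high cells of Drosha fl/fl;cdh5-cre+ conditional knockout (cKO) embryos, labelled null for Drosha. The Ter119-low library is from Ter119-low cells of Drosha fl/fl;cdh5-cre+ embryos, labelled as having Drosha as abundant as wild type. The control library is from Ter119-high cells of Drosha fl/fl or Drosha fl/+ embryos, labelled WT for Drosha. The floxed Drosha gene, whose nuclear enzyme releases microRNA hairpins from their primary transcripts, is deleted here by a Cre recombinase under the promoter of Cdh5, an endothelial gene, so that deletion is not driven by an erythroid promoter. The Ter119-low library differs from the control in both gate and genotype. The sources used here name no strain.

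The spliceosome removes introns from pre-mRNA. The U1 particle binds the 5' splice site, U2AF binds the 3' splice site, and the U2 particle with SF3a and SF3b binds the branch site, after which U4, U5 and U6 join as a tri-snRNP. Each of U1, U2, U4 and U5 carries a ring of Sm proteins, while SR proteins and hnRNPs bind exons and introns and often act against each other on the choice of splice sites. Erythroblasts are known for a programme of stage-dependent alternative splicing, and mutations of SF3B1, SRSF2 and U2AF1 are known from human disorders of blood formation with anemia.

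Each group has 1 library and thus no replicate, the spread between pools is unknown, and no test across conditions was made. Counts were scaled by TMM, a trimmed-mean method, and compared as log2 ratios with 0.5 counts added and with 95% Clopper-Pearson intervals that cover counting error only. A gene was called higher or lower when its ratio was at least 2-fold and the interval excluded a ratio of 1. Total counts were 9325822, 9418480 and 9497431 in the Drosha-null, Ter119-low and control library, and Drosha itself had 122, 244 and 324 counts in the same order. All 10 erythroblast markers were found in every library, with summed scaled levels of 141154, 241380 and 278190 CPM, and 4 of the 10 were called lower in Drosha-null cells than in the control. The 25 markers of endothelial, myeloid, platelet and cardiac muscle cells, of which 23 were matched, summed per cell type to between 2.69 and 26.1 CPM in all libraries, and Mpo, Emr1 and Tnnt2 were at 0 in Ter119-low, Pf4 in Drosha-null, Ppbp and Myh6 in both of these and Nppa in control cells. Cardiac muscle markers summed to 26.1 CPM in Drosha-null, 6.29 in Ter119-low and 8.93 in control cells, and endothelial markers to 19.6, 9.09 and 8.69 CPM. The part of other cells in the results below was not tested. In bulk RNA, fewer cells of a type and less RNA per cell cannot be told apart.

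As a group, the 65 genes took 1.24% of all counts in Drosha-null cells (115260 counts), 1.05% in Ter119-low cells (98927) and 0.993% in control cells (94326). Most of these counts belonged to hnRNP genes, with 0.651%, 0.547% and 0.502% of all counts in Drosha-null, Ter119-low and control cells, and to SR protein genes, with 0.259%, 0.236% and 0.233%. These shares rest on total counts, in which globin and ribosomal RNA weigh heavily, and on the TMM scale the order of the group sums turns round, with 10342 CPM in Drosha-null, 11104 in Ter119-low and 11227 in control cells. Levels between genes are given as FPKM, the authors' value per gene length and library size. The highest was Srsf2 in the control (344 FPKM) and in the Ter119-low library (325 FPKM), and Hnrnpa1 in the Drosha-null library (382 FPKM). The lowest detected member in every library apart from Srsf12 was Prpf40b, with 0.96 FPKM in Drosha-null, 0.85 in Ter119-low and 0.51 in control cells. Median levels per family in the control were 62.3 FPKM for hnRNPs, 53.2 for SR proteins, 47.5 for Sm and snRNP proteins, 33.7 for SF3a and SF3b, 27.2 for U2AF and 15.6 for PRP-type factors.

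**Figure D1:**
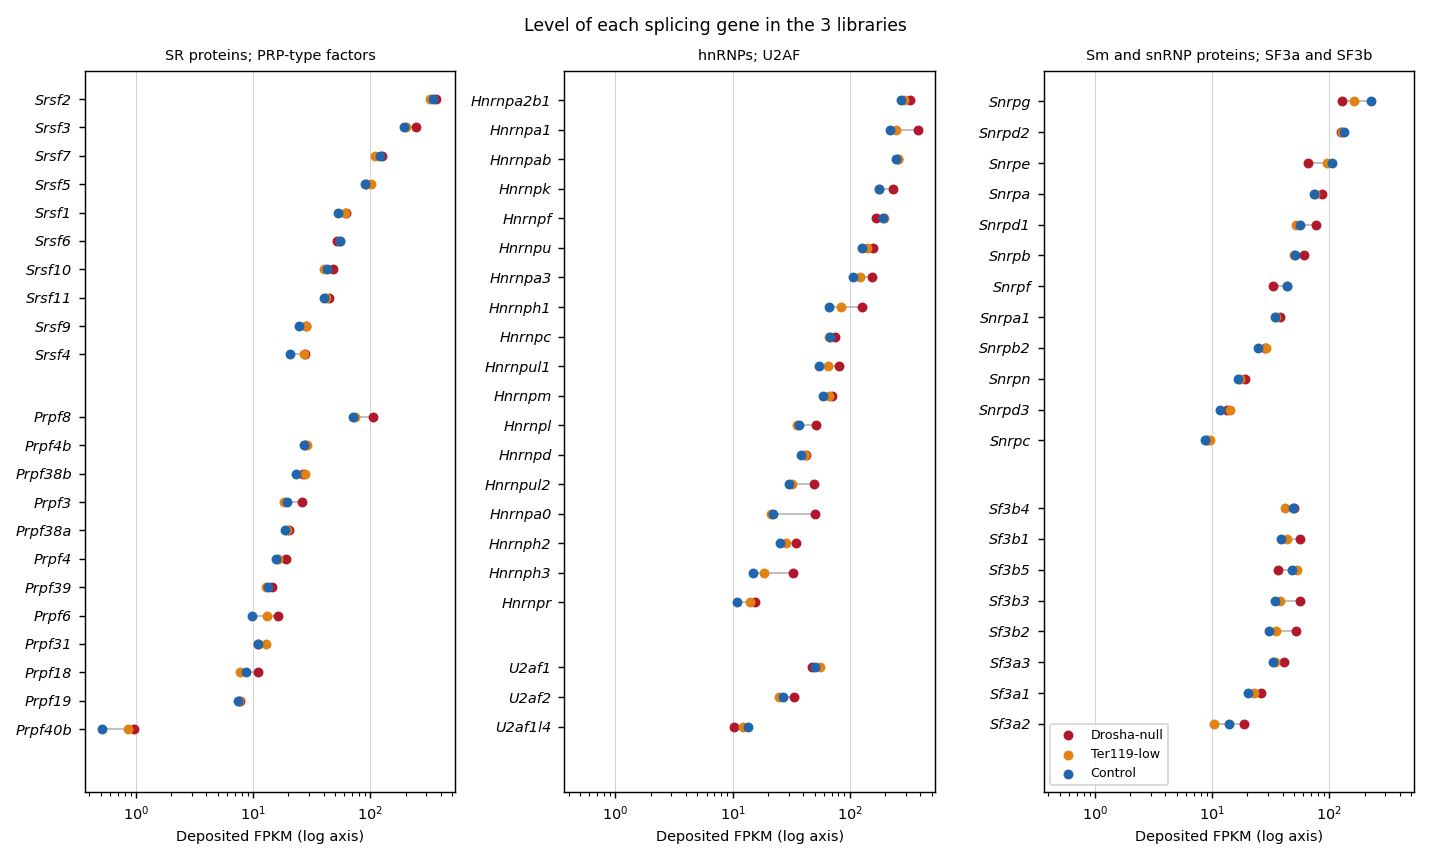
Deposited FPKM on a log axis of 63 splicing genes in the Drosha-null (red), Ter119-low (orange) and control (blue) library, ordered by mean level within each family, with 1 point per library and grey lines joining the points of a gene. The spread between genes is far wider than that between libraries, and the points of Hnrnpa0, Hnrnph3 and Hnrnph1 stand farthest apart, with the Drosha-null library highest.

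Set against the control, the Drosha-null library had 0 of 64 members called higher and 2 called lower, the Sm genes Snrpg and Snrpe. Of all 10769 genes tested, 12.4% were called higher and 7.81% lower. The members' median log2 ratio was −0.20, against −0.02 for all genes, and their middle range from −0.37 to 0.01 was narrower than that of all genes, from −0.47 to 0.52. Scaling by total counts moves the median of all genes by 0.43 to 0.41, and with it the members' median to 0.23, so values are also given relative to all genes. Of the 64 members, 45 lay below the median of all genes, a count that does not depend on the scaling because it shifts all genes alike. By total counts Snrpg and Snrpe fell short of the size rule, at −0.82 and −0.68, and the hnRNP genes Hnrnpa0 and Hnrnph3 passed it, at 1.18 and 1.13. Under that scaling 23.0% of all genes were called higher and 2.7% lower. At 1.5-fold with the interval excluding 1, 2 members were called higher and 6 lower by TMM, against 19.5% and 17.6% of all genes.

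**Figure D2:**
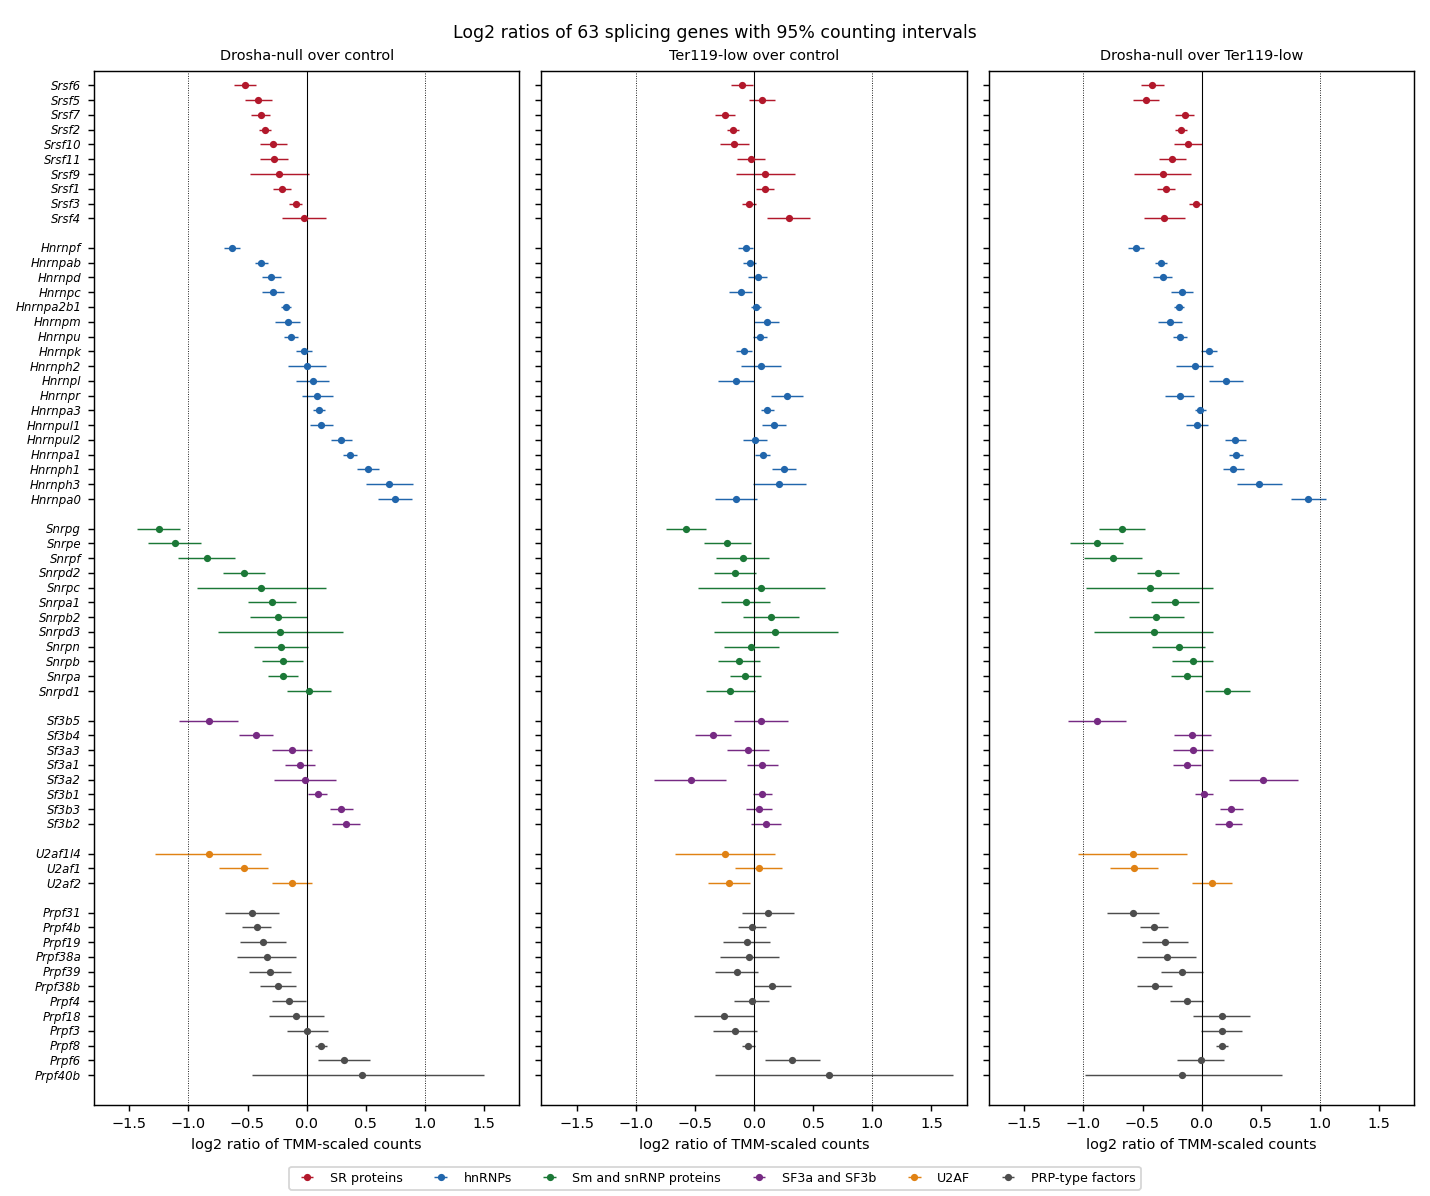
Log2 ratios of TMM-scaled counts of 63 splicing genes (points) with 95% counting intervals (bars), coloured by family, for Drosha-null over control, Ter119-low over control and Drosha-null over Ter119-low. Dotted lines mark 2-fold, which is passed by the points of Snrpg and Snrpe in the left panel alone.

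SR proteins carry an RNA-binding domain and a tail rich in arginine and serine, and they mostly favour the use of exons they bind. Many of their genes hold a conserved exon whose inclusion marks the RNA for decay, by which they limit their own level. All 10 measured SR genes lay below the median of all genes in Drosha-null cells, the highest, Srsf4, at −0.02 as that median itself is. Of these genes 0 were called, where 12.4% of all genes were called higher and 7.81% lower. The family median was −0.28 by TMM, with 10 of 10 values below 0, whereas by total counts the median was 0.15 and 9 of 10 were above 0. Srsf2, which binds exonic enhancers, was the most abundant, with 6239 counts in Drosha-null, 5628 in Ter119-low and 6003 in control cells and a log2 ratio of Drosha-null to control of −0.35 (−0.40 to −0.30). Srsf3, the shortest of the SR proteins and also an mRNA export adaptor, had 5815, 4811 and 4679 counts in the same order, a log2 ratio of −0.09 (−0.15 to −0.04). Srsf7, another export adaptor, had 2639, 2329 and 2604 counts, at −0.39 (−0.47 to −0.31). Raw counts of these 3 genes were thus higher in Drosha-null than in control cells, and the negative sign comes from the scaling. Copies make Srsf3 and Srsf5 less certain, since 31.5% and 27.8% of the 50-base stretches of their transcripts recur in other annotated genes. Srsf6 was the lowest of the family at −0.52 (−0.62 to −0.43), with 1700 counts in Drosha-null, 1816 in Ter119-low and 1840 in control cells, and it was the one SR gene below 0 by total counts as well. Srsf4 was the highest at −0.02 (−0.21 to 0.16), with 561, 558 and 430 counts. Srsf1, the founding member of the family, Srsf5, Srsf9, Srsf10 and Srsf11 lay between −0.41 and −0.21.

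The hnRNPs coat nascent transcripts and take part in splicing, transport and decay. They were the most divided family in Drosha-null cells, with 9 of 18 genes above 0 and 9 below by TMM (17 and 1 by total counts), a median of 0.03 and a range from −0.63 to 0.75. None passed 2-fold by TMM, where 12.4% of all genes were called higher and 7.81% lower. Hnrnpa0, which encodes a protein that binds AU-rich elements, had 1229 counts in Drosha-null, 526 in Ter119-low and 552 in control cells, so that the Drosha-null library stood apart from both others. Its log2 ratio to the control was 0.75 (0.60 to 0.89), the highest of the 64 members. Hnrnph3 had 646, 368 and 300 counts in Drosha-null, Ter119-low and control cells, a log2 ratio of 0.70 (0.50 to 0.90). Hnrnph1, a regulator that binds runs of G, had 2596, 1725 and 1366 counts, at 0.52 (0.42 to 0.61). For both H genes the Ter119-low library lay between the other libraries. Hnrnpa1, which represses exons and is known from human cells to bind the primary transcript of miR-18a, had 6078, 3968 and 3561 counts, at 0.36 (0.30 to 0.42). Of the 50-base stretches of its transcript, 46.4% recur in 18 other annotated genes, so that its count is uncertain.

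At the other end of the family, Hnrnpf had 3333 counts in Drosha-null, 3921 in Ter119-low and 3887 in control cells, a log2 ratio to the control of −0.63 (−0.70 to −0.56). It was the one hnRNP gene below 0 by total counts. Hnrnpab was at −0.38 (5772, 5862 and 5673 counts), and Hnrnpd, whose protein AUF1 promotes decay of AU-rich mRNAs, at −0.30. Hnrnpa2b1, the family's most abundant gene by mean FPKM, had 10535, 9605 and 8963 counts in Drosha-null, Ter119-low and control cells and a log2 ratio of −0.17 (−0.22 to −0.13). Hnrnpk, which binds C-rich RNA, stood at −0.02 (−0.09 to 0.04) with 4174, 3196 and 3199 counts (34.5% of its stretches recur elsewhere), and Hnrnpu, a scaffold protein of the nucleus, at −0.13. The remaining hnRNP genes lay between −0.28 (Hnrnpc) and 0.29 (Hnrnpul2).

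Shares within a set of related genes do not depend on how libraries are scaled. Hnrnpf and the H genes encode close relatives that bind the same G-rich motifs. Hnrnpf made up 45.6% (interval 44.4% to 46.7%) of the counts of the 4 F and H genes in Drosha-null cells, 59.1% (58.0% to 60.3%) in Ter119-low and 63.6% (62.4% to 64.8%) in control cells. Hnrnph1 made up 35.5% in Drosha-null and 22.4% in control cells, with Ter119-low cells between them. Hnrnph3 made up 8.83%, 5.55% and 4.91% and Hnrnph2 10.1%, 9.28% and 9.12% in Drosha-null, Ter119-low and control cells. The balance thus lay farthest from Hnrnpf in Drosha-null cells. Copies bear on these shares. Of the 50-base stretches of Hnrnpf, 49.0% recur in 7 other genes, against 18.2% for Hnrnph2, 0.336% for Hnrnph1 and 0% for Hnrnph3. Among the A and B genes, Hnrnpa1 took 24.2%, 19.8% and 19.5% and Hnrnpa2b1 41.9%, 48.0% and 49.2% of the counts of 4 genes in Drosha-null, Ter119-low and control cells. Hnrnpa0 took 4.88%, 2.63% and 3.03%, and Hnrnpa3 29.1%, 29.5% and 28.2%. Copies bear on these shares too. Of the stretches of Hnrnpa1 and Hnrnpa3, 46.4% and 28.2% recur in other genes, against 2.44% for Hnrnpa2b1 and 0% for Hnrnpa0. Hnrnpa3 also has fractional counts.

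**Figure D3:**
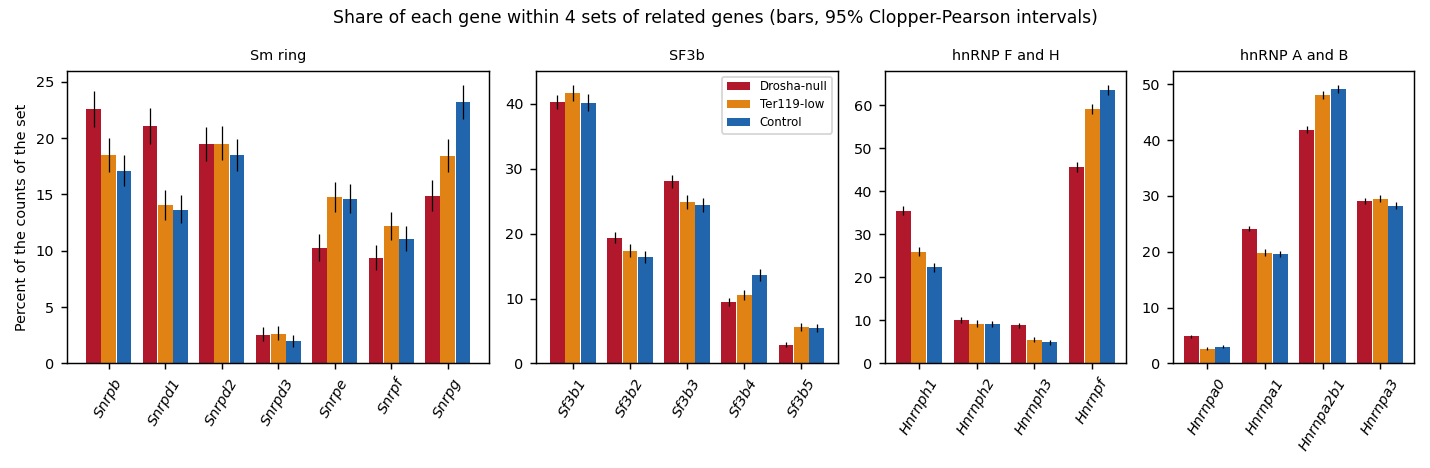
Percent of the summed counts of 4 sets of related genes that each gene takes (bars) with 95% Clopper-Pearson intervals, for the Drosha-null (red), Ter119-low (orange) and control (blue) library. Within the Sm ring the Snrpg bar is at 14.8% in Drosha-null, 18.4% in Ter119-low and 23.2% in control cells, and within the F and H genes the Hnrnpf bar is lowest in Drosha-null cells.

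The promoter windows of the 2 hnRNP genes with the highest ratios are shown to set them beside those of the 2 lowest Sm genes below. They run from 250 bases before to 50 after the start in RefSeq (GRCm38.p6), 5' to 3' on the gene's strand, Hnrnpa0 at chr13:58128507-58128806 (minus strand) and Hnrnph3 at chr10:63023800-63024099 (minus strand). Capitals mark matches on either strand to the CCAAT box (CCAAT), the GC box (GGGCGG), the TATA box (TATAAA) and an ETS-type motif (CCGGAAG).
Hnrnpa0: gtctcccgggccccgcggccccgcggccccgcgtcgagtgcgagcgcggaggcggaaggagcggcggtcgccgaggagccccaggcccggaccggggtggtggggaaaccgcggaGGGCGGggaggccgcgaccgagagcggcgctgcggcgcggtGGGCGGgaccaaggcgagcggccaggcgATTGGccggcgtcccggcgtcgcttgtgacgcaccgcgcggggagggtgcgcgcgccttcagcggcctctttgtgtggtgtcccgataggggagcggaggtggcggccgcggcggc
Hnrnph3: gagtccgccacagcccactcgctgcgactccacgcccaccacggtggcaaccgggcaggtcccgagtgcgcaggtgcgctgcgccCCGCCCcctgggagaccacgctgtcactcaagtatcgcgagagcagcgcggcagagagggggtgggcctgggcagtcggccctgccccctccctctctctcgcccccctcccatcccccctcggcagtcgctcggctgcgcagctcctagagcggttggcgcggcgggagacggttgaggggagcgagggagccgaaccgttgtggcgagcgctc
Both windows hold a GC box, and that of Hnrnpa0 a CCAAT box in reverse. Of the first promoter listed for 56 measured members found in the table, 36 (64.3%) hold GGGCGG, 29 (51.8%) CCAAT, 18 (32.1%) CCGGAAG and 6 (10.7%) TATAAA, against 67.1%, 40.2%, 20.2% and 6.69% of the 8704 tested genes with a window.

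The Snrp genes encode the Sm proteins, which form a ring on the snRNAs, and proteins particular to U1 and U2. In Drosha-null cells 2 of 12 were called lower and 0 higher, where 7.81% and 12.4% of all genes were, with a median of −0.27. By TMM 11 of 12 were below 0, which 4 were by total counts, and 11 lay below the median of all genes. Snrpg, a ring subunit, had 389 counts in Drosha-null, 497 in Ter119-low and 698 in control cells, a log2 ratio to the control of −1.25 (−1.43 to −1.07). Snrpe, another ring subunit, had 269, 398 and 439 counts, at −1.11 (−1.34 to −0.89). Snrpf, whose protein joins SmE and SmG in a trimer before the ring closes, had 245, 329 and 332 counts, at −0.85 (−1.09 to −0.60), under the 2-fold rule. Each of these 3 genes was lowest in Drosha-null cells, and in Ter119-low cells the intervals of Snrpg and Snrpe lay below the control while that of Snrpf included it. Snrpd2 was at −0.53 (510, 527 and 556 counts). Snrpd1 was the highest of the family, with 552, 379 and 411 counts in Drosha-null, Ter119-low and control cells and a log2 ratio of 0.02 (−0.17 to 0.21). Snrpb, with 592, 499 and 514 counts, was at −0.20 (−0.38 to −0.03), and Snrpd3, with 67, 71 and 59 counts, at −0.23 with an interval that includes 0. Snrpn, a near-identical relative of Snrpb known from an imprinted locus, has fractional counts and shares its transcript with Snurf, and its −0.22 is uncertain.

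The 7 ring genes differed among themselves. As a share of the counts of the 7 ring genes, Snrpg took 14.8%, 18.4% and 23.2% and Snrpe 10.3%, 14.7% and 14.6% in Drosha-null, Ter119-low and control cells. Snrpf took 9.34% in Drosha-null cells and 12.2% in Ter119-low cells, and its control interval of 9.94% to 12.2% overlaps that of Drosha-null cells. Snrpd1 took 21.0%, 14.0% and 13.7%, and Snrpb 22.6%, 18.5% and 17.1%, in Drosha-null, Ter119-low and control cells. By FPKM, which allows for the short lengths of these genes, Snrpg was the most abundant ring gene in all libraries, with 129 FPKM in Drosha-null, 163 in Ter119-low and 226 in control cells, followed by Snrpd2 with 125, 128 and 133 FPKM, whereas by counts Snrpg led in the control alone. Snrpe had 66.0, 96.5 and 105 FPKM. Copies of these genes bear on the counts, since 18.1%, 20.8% and 21.3% of the 50-base stretches of Snrpg, Snrpe and Snrpf recur in other annotated genes. The U1 genes Snrpa and Snrpc and the U2 genes Snrpa1 and Snrpb2 lay between −0.38 and −0.20.

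The windows of the 2 genes called lower are at chr6:86371290-86371589 (plus strand) for Snrpg and chr1:133610231-133610530 (minus strand) for Snrpe, from the same table and with capitals as above.
Snrpg: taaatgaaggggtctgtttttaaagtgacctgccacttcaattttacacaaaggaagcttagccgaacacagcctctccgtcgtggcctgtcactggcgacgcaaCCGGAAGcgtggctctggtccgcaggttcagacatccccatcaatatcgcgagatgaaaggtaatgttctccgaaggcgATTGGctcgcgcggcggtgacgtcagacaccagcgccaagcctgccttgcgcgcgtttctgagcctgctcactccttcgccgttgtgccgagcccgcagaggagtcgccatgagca
Snrpe: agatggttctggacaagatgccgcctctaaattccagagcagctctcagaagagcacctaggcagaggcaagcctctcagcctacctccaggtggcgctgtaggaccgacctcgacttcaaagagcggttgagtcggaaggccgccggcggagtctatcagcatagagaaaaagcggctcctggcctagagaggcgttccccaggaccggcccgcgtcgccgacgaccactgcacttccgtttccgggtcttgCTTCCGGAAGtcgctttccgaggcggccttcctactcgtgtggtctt
Both hold the ETS-type motif, in Snrpe as 2 overlapping matches on opposite strands, and neither holds the GC box of the hnRNP windows above. The Snrpg window also holds a CCAAT box in reverse, as that of Hnrnpa0 does. Among 10 Sm and snRNP promoters in the table, 4 hold the ETS-type motif and 5 the GC box, against 2 and 12 of 17 hnRNP promoters. A match is a description of letters and not evidence of binding.

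SF3a and SF3b anchor the U2 particle at the branch site. In Drosha-null cells 0 of 8 genes were called, where 12.4% of all genes were called higher and 7.81% lower. The median was −0.04, and 4 lay below the median of all genes. Sf3b1, whose protein contacts the branch site, had 3213 counts in Drosha-null, 2529 in Ter119-low and 2272 in control cells, a log2 ratio of 0.09 (0.01 to 0.17). Sf3b2, with 1546, 1054 and 927 counts, was the highest at 0.33 (0.21 to 0.45), and Sf3b3, with 2242, 1505 and 1380 counts, was at 0.29 (0.20 to 0.39). These 3 encode the large subunits. The small subunit gene Sf3b5 had 231, 341 and 309 counts in Drosha-null, Ter119-low and control cells, a log2 ratio of −0.83 (−1.08 to −0.58), and Sf3b4 had 756, 638 and 767 counts, at −0.43 (−0.58 to −0.28), which is uncertain because 49.3% of its stretches recur elsewhere. Sf3b5 took 2.89% of the counts of the 5 SF3b genes in Drosha-null cells, 5.62% in Ter119-low and 5.46% in control cells, intervals of the first and the others not overlapping. The 3 SF3a genes were between −0.13 and −0.02, each with an interval that includes 0.

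U2AF reads the 3' splice site, with U2af1 at the AG and U2af2 at the pyrimidine tract. In Drosha-null cells U2af1 had 372 counts, against 442 in Ter119-low and 406 in control cells, a log2 ratio to the control of −0.53 (−0.74 to −0.33). U2af2 had 668, 503 and 549 counts, at −0.12 (−0.29 to 0.04). U2af1l4, a relative of U2af1, had 76, 91 and 102 counts, at −0.83 (−1.28 to −0.39), but 97.2% of its 50-base stretches recur in 1 other annotated gene, and for U2af1 59.4% and U2af2 29.9% recur elsewhere, so all 3 are uncertain.

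The PRP-type factors, named after yeast splicing mutants, had 0 of 13 called and a median of −0.15 in Drosha-null cells. Of all genes, 12.4% were called higher and 7.81% lower. Prpf8, the core of U5 and the largest spliceosomal protein, was the most abundant, with 7246 counts in Drosha-null, 5146 in Ter119-low and 5017 in control cells and a log2 ratio of 0.12 (0.07 to 0.17). Prpf4b, a kinase gene, had 1131, 1198 and 1144 counts, at −0.42 (−0.54 to −0.30). The tri-snRNP genes lay on both sides of 0. Prpf6 had 459, 369 and 278 counts in Drosha-null, Ter119-low and control cells, at 0.31 (0.10 to 0.54), and Prpf31, with 313, 374 and 325 counts, was the lowest at −0.46 (−0.69 to −0.23). Prpf3 and Prpf4 lay between them at 0.01 and −0.15. Prpf40b had the highest value, 0.47, on 28, 25 and 15 counts, with an interval that includes 0.

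Gene length moved with these ratios. Across the 64 members Spearman's rho between length and log2 ratio of Drosha-null to control was 0.41, and across all 10769 genes it was 0.31, where all points share the same 2 libraries. The 9 members of 500 to 1000 bases had a median of −0.53, against −0.58 for all 682 genes of that length, and the 13 members of 4000 bases or more a median of −0.06, against 0.23 for 3246 genes. Snrpg (393 bases), Snrpe (508), Sf3b5 (750) and Snrpf (869) are among the shortest members, while Snrpd2 (508) and Snrpd1 (837), of like length, stood at −0.53 and 0.02. Hnrnpf has a length of 2201 bases, Hnrnph1 of 2242 and Hnrnph3 of 2170. The part of length in the differences was not tested.

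**Figure D4:**
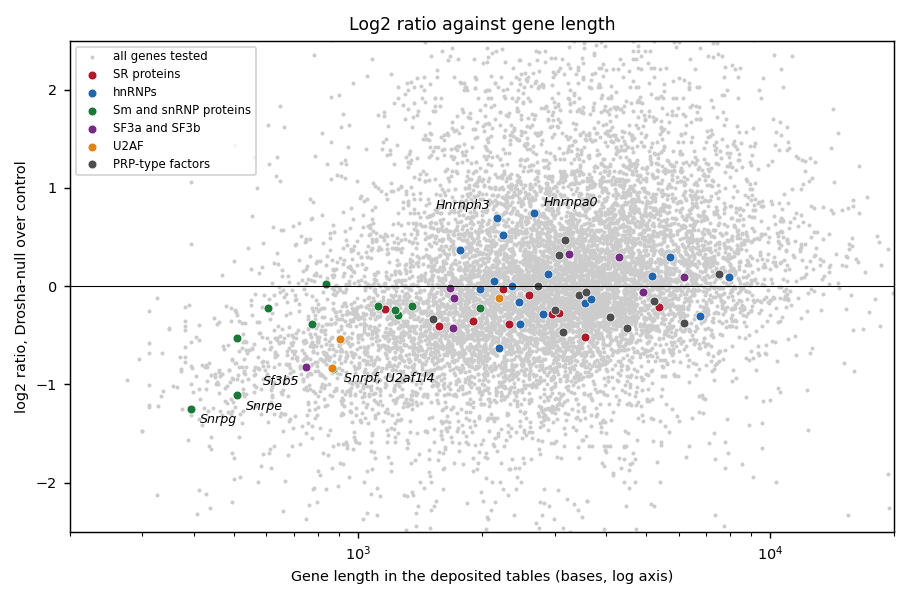
Log2 ratio of Drosha-null over control (TMM) against gene length in the deposited tables (bases, log axis), for all tested genes within the axis range (grey) and the 64 splicing genes by family (colours). The short Sm genes Snrpg and Snrpe lie lowest among the members at −1.25 and −1.11, in a region where most grey points are below 0 too, and the point of U2af1l4 covers that of Snrpf.

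In the Ter119-low library against the control, 0 of 64 members were called in either direction, at 2-fold as at 1.5-fold. Among all 10591 genes tested 2.9% were called higher and 2.76% lower at 2-fold, and 5.13% and 4.9% at 1.5-fold. The members' median log2 ratio was −0.03 (0.07 by total counts), against 0.00 for all genes, with a range from −0.57 to 0.63. The lowest was Snrpg at −0.57 (−0.74 to −0.41), followed by Sf3a2, an SF3a subunit gene, with 157 counts in Ter119-low and 215 in control cells (−0.54, −0.84 to −0.23). Sf3b4 was at −0.35 (−0.50 to −0.20) and Snrpe at −0.23 (−0.43 to −0.03). The highest with over 100 counts were Prpf6 at 0.32 (0.10 to 0.55), Srsf4 at 0.29 (0.11 to 0.48), Hnrnpr at 0.28 (0.14 to 0.41) and Hnrnph1 at 0.25 (0.15 to 0.36). The highest of all, Prpf40b at 0.63, had 25 and 15 counts. Family medians lay between −0.21 for U2AF and 0.05 for SF3a and SF3b. This comparison shares its control library with the one above, so like values in both are not separate observations.

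Between the cKO libraries, Drosha-null over Ter119-low, 0 of 64 members were called higher and 0 lower at 2-fold, against 10.8% and 5.94% of all 10795 genes. At 1.5-fold Hnrnpa0 was called higher and Snrpe, Sf3b5, Snrpf and Snrpg lower, against 18.2% and 14.8% of all genes. Hnrnpa0 was at 0.90 (0.75 to 1.05), and passed 2-fold by total counts at 1.24, where 18.7% of all genes were called higher. Sf3a2 followed at 0.52 (0.24 to 0.81) and Hnrnph3 at 0.49 (0.30 to 0.68). The lowest were Snrpe at −0.89 (−1.12 to −0.66), Sf3b5 at −0.88 (−1.13 to −0.64), Snrpf at −0.75 (−0.99 to −0.51), Snrpg at −0.68 (−0.87 to −0.48), U2af1l4 and Prpf31 at −0.58 each, U2af1 at −0.57 and Hnrnpf at −0.56 (−0.62 to −0.49). The members' median was −0.17 by TMM and 0.17 by total counts, beside −0.02 and 0.32 for all genes, and 46 of 64 lay below the median of all genes. All 10 measured SR genes were again below it, from Srsf5 at −0.47 to Srsf3 at −0.05. This comparison uses the same Drosha-null library as the first.

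Other splicing genes were taken from a list of 169 symbols, of which 168 matched listed genes outside the families above and 167 were measured. In Drosha-null cells 3 of 167 (1.8%) were called higher and 10 (5.99%) lower than in the control, against 12.4% and 7.81% of all genes, with a median of −0.22 by TMM. By total counts 8 were called higher and 4 lower, against 23.0% and 2.7% of all genes, with a median of 0.21, so the balance turns with the scaling. The LSm genes, which encode relatives of the Sm proteins that form the ring of U6 and, in the cytoplasm, a ring for mRNA decay, had 4 of 10 called lower and 0 higher, with a median of −0.90 (−0.46 by total counts). Lsm5 had 51 counts in Drosha-null, 105 in Ter119-low and 112 in control cells, at −1.53, Lsm4 and Lsm6 were at −1.06 and −1.05, and Lsm10, a U7 subunit that serves histone mRNA processing, was at −1.47. Snrnp25, a protein of the minor U11/U12 particle, had 99, 324 and 313 counts in Drosha-null, Ter119-low and control cells, at −2.06 (−2.41 to −1.74), lower also by total counts (−1.63). Phf5a, a small SF3b subunit, had 400, 711 and 756 counts, at −1.33 (−1.50 to −1.15), under 2-fold by total counts (−0.89). Lsm5 (516 bases), Lsm10 (854), Lsm4 (953) and Snrnp25 (838) are short, while Phf5a (1648) and Lsm6 (3767) are longer. Of all 682 genes of 500 to 1000 bases, 149 were called lower by TMM, with a median of −0.58. The part of length in these values was not tested. The 4 called lower by total counts are Lsm5, Lsm10, Snrnp25 and Smg5, and the 8 called higher are Mbnl2, Nova1, Celf2 and, between 1.04 and 1.32, Cwc27, Snupn, Rbmx, Hnrpll and Dhx35. The others called lower were Clk3 (−1.08), a kinase of SR proteins, the decay factor gene Smg5 (−1.48), and the RNA-binding protein genes Cirbp (−1.02) and Rbm38 (−1.05), the last a regulator of splicing in erythroid maturation. Called higher by TMM were Mbnl2 (105, 19 and 25 counts in Drosha-null, Ter119-low and control cells, 1.64), Nova1 (126, 45 and 34, 1.47) and Celf2 (19, 11 and 4, 1.71), regulators best known from muscle, brain and lymphoid cells. In Ter119-low cells 0 were called higher and 2 lower under both scalings, Cirbp (−1.13) and Mbnl3 (−1.12). Of all genes, 2.9% and 2.76% were called by TMM, and 3.35% and 2.12% by total counts. Between the cKO libraries 2 were called higher in Drosha-null cells, Mbnl2 (2.11) and Nova1 (1.15), and 6 lower, against 10.8% and 5.94% of all genes. By total counts 6 (3.59%) were called higher and 2 (1.2%) lower, against 18.7% and 2.79% of all genes.

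Drosha cuts hairpins out of primary transcripts, and 2 members carry an annotated microRNA within their bounds on the same strand, in both cases outside the exons of their protein-coding transcripts. Hnrnpk holds Mir7-1 at chr13:58392779-58392886 (minus strand, GRCm38.p6), and Sf3a3 holds Mir697 at chr4:124731694-124731802 (plus strand). The Mir7-1 hairpin from RefSeq is given with its mature product, in which the seed (bases 2 to 8) is in capitals.
Mir7-1: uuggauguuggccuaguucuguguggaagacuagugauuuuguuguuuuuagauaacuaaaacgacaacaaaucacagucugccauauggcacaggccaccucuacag
mmu-miR-7a-5p: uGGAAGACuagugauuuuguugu
By TMM the spliced host RNAs stood near the control in Drosha-null cells, Hnrnpk at −0.02 (−0.09 to 0.04) and Sf3a3 at −0.13 (−0.30 to 0.05). By total counts they were at 0.41 and 0.31, where the median of all genes was 0.41. Of the 50-base stretches of Hnrnpk, 34.5% recur in other genes, and counts per gene do not measure the hairpins.

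The 3' UTRs of the 64 measured members (longest annotated, GENCODE M21) were searched for 7-base complements of microRNA seeds. The seeds of the paired erythroid microRNAs miR-144 and miR-451 are shown in capitals, mmu-miR-144-3p at chr11:78073047-78073066 and mmu-miR-451a at chr11:78073186-78073207 (both plus strand).
mmu-miR-144-3p: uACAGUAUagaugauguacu
mmu-miR-451a: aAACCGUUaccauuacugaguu
None of the 64 held a match to miR-451 (AACGGTT), which 217 of 10374 genes with a 3' UTR (2.09%) held. Genes with this match had a median log2 ratio of Drosha-null to control of 0.59, against −0.01 for genes without it. A match to miR-144-3p (ATACTGT) was held by 11 members (17.2%), against 14.5% of all genes. Their median log2 ratio of Drosha-null to control was −0.06, against −0.21 for the 53 members without it, while all genes with a match had 0.17 and those without −0.03. The 11 genes span nearly the whole range of the hnRNP family, as the sites in its highest H gene and its lowest member show, at chr10:63015253-63015277 (minus strand) in Hnrnph3 and chr6:117925470-117925494 (plus strand) in Hnrnpf, with the match in capitals.
Hnrnph3: tcacccctggacATACTGTaaataa
Hnrnpf: gacacaatactaATACTGTaggaat
These genes stood at 0.70 and −0.63, and they were chosen for display as the extremes among the hnRNP genes with a match. Matches to the miR-17/20/93, miR-92/25, let-7 and miR-15/16 seeds were found in 4, 2, 3 and 9 members, against 15.5%, 7.90%, 11.1% and 26.2% of all genes, and to the miR-7 seed in 10 members, against 14.5%. All genes with a match had higher medians than those without for these seeds too. The medians were 0.19 against −0.04 for miR-17/20/93, 0.30 against −0.03 for miR-92/25 and 0.12 against −0.02 for let-7. They were 0.10 against −0.03 for miR-15/16 and 0.09 against −0.02 for miR-7. A shift in this direction was thus seen for every seed searched, and it was widest for miR-451. Sequences other than microRNA seeds were not searched for comparison, and the part of gene length in the shift was not tested. A match describes letters, and binding was not measured.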

How the data were processed

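The labels give total RNA, and name no aligner, counter, build or gene annotation. Per the file headers and values, the 2 deposited tables each set a cKO library beside the control and hold expected counts per gene (estimated, fractional for some genes), FPKM values made by the authors, and the authors' log2 ratio of FPKM with a p-value and FDR for 1 library against 1, by a test they do not name. The tables were joined by gene ID (control counts differed for 0 of 13882 shared genes), and a gene listed once was given 0 counts in the other library. Expected counts were rounded to whole numbers. TMM scaling used edgeR 4.0.16 under R 4.3.3 (factors 1.20, 0.946 and 0.885 for Drosha-null, Ter119-low and control). Log2 ratios with 0.5 counts added and Clopper-Pearson intervals were computed for genes at 1 CPM or more in either library. Python 3.11.15 was used with NumPy 2.4.6, SciPy 1.17.1 and pandas 2.3.3. The calculation was tried on simulated counts that hold counting error alone, which cannot show how it performs under spread between pools. Alternative size factors came from DESeq2 1.42.0. Intervals and floors of 3 counts cover counting error only, and without molecular identifiers reads cannot be taken as independent molecules. Stretches of 50 bases of each member's longest coding transcript were looked up in all other GENCODE M21 genes. Promoters and microRNAs come from RefSeq (GRCm38.p6) by gene ID, and their coordinates are not those of the deposited tables.

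Genes were named by a rule: per family the 3 with the highest mean FPKM, all called members, and the highest and lowest ratio per comparison at 10 CPM or more, and all called genes of the wider list. Others, and the sets used for shares, were chosen after their values were seen. The members and lists were chosen with earlier results of these data known. Protein sequences were not used here. The values of 1 member are not reported here and are left out of the plots that name members, while counts and medians include it.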

Additional observations from a re-analysis of the deposited data

How the results depend on the processing

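No paired analysis was possible because each group has 1 library, and no library could be left out. For Drosha-null against control, the 0 members called higher and 2 lower became 2 and 0 when scaled by total counts, by log2(FPKM + 0.1) or log2(FPKM + 1) at 2-fold, and by the log2 ratio and FDR (0.05 or less) of the authors' deposited table, and 2 and 6 at 1.5-fold. By total counts 23.0% of all genes were called higher and 2.7% lower. The members' median of −0.20 became 0.23 by total counts, 0.23 by log2(FPKM + 0.1) and 0.23 by log2(FPKM + 1). Between Drosha-null and Ter119-low cells the 0 called higher became 1 by total counts and by both FPKM settings, and 1 higher and 4 lower at 1.5-fold, while the median of −0.17 became 0.17, 0.17 and 0.16. Of all genes, 18.7% were called higher and 2.79% lower by total counts in this comparison. FPKM values are scaled by library size as total counts are. Median-of-ratios scaling, TMM without ribosomal RNA and globins, no filter on low counts, a filter at 5 CPM, 1 count added and 2-fold with no interval changed no count of calls among the members in any comparison. For Ter119-low against control 0 members were called under every alternative run. Depth limits Srsf12, Prpf40b, Snrpc and Snrpd3, whose intervals are the widest. For the wider list, total counts, a setting chosen after seeing the data, turned 3 higher and 10 lower into 8 and 4 for Drosha-null against control, and 2 higher and 6 lower into 6 and 2 for Drosha-null against Ter119-low.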
